A study of Sus scrofa with 6 samples.

Results

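Imprinted genes were described in differentiating porcine satellite cells (PSCs), which are the stem cells of skeletal muscle and form myoblasts that fuse into myotubes. The 10 genes listed were DLK1, MEST, PEG3, PEG10, NNAT, NDN, PLAGL1, GNAS, GRB10 and PHLDA2, and their rows were found by gene symbol. A row of the expression table could be paired with 6 of them (MEST, PEG3, NDN, PLAGL1, GRB10 and PHLDA2), out of 28266 rows in all. DLK1, PEG10, NNAT and GNAS were not paired with a row and were not analysed here.

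The PSCs came from the limb muscles of 3-day-old Yorkshire male pigs, were grown on Matrigel and were differentiated in medium with horse serum. Cells that received negative control (NC) siRNA were compared between 24 h of differentiation (NC24h, replicates 4, 5 and 6) and 36 h (NC36h, replicates 4, 5 and 6), so both groups carried a transfection and no untransfected cells were analysed. The series title and the study give 36 h for the later group, whereas its sample labels give 48 h. The assignment to NC siRNA rests on the letter N of the library titles, which the study uses for its NC groups, and no library with H19 siRNA was used here. The number of pigs behind the libraries is not stated, so the p-values measure the spread between these libraries, which may be technical.

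An imprinted gene is transcribed mainly from the copy inherited from 1 parent, and the choice is held by DNA methylation laid down in the egg or the sperm. Many imprinted genes regulate growth before and after birth, and several are known to act in muscle precursors. Imprinting can differ between species and tissues. The values below are total transcript levels, and the parent of origin was not measured.

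Expression was given as FPKM, that is, fragments per gene divided by the gene's length and by the total of the library. The fragments in the table numbered 16248619 to 16773012 in the NC24h libraries and 17872094 to 21721227 in the NC36h libraries. Of 12 skeletal muscle lineage markers tested, 10 were higher at 36 h and 0 lower, and the 2 others were MYOD1 (log2 change -0.29, limma adjusted p = 0.133) and MYF5 (-0.48, limma adjusted p = 0.106). At the threshold given below, 16.5% of all tested genes were higher and 34.4% lower. The summed FPKM of the muscle markers was between 12004 and 17905 in the NC24h libraries, with NC24h replicate 6 at the lowest value, and between 29349 and 32476 in the NC36h libraries. The sum is carried by sarcomere genes such as ACTC1. MYOD1, MYF5, MYF6 and CDH15, the last a cadherin of muscle precursors, had by contrast their highest NC24h value in replicate 6, with MYOD1 at 255, 306 and 386 FPKM and MYF5 at 66.9, 75.4 and 112 in replicates 4, 5 and 6. The summed FPKM of 7 fibroblast markers was between 932 and 1003 at 24 h and between 827 and 1033 at 36 h, where DCN, LUM and COL1A2 fell and COL3A1 and POSTN rose. Epithelial and endometrial markers were checked because the extraction text of the labels names endometrium. KRT8 and PGR were at 0 in all libraries, and the summed FPKM of the 6 markers with a row was between 0.290 and 0.676 at 24 h and between 2.60 and 4.54 at 36 h, with CDH1 rising (log2 change 1.79, limma adjusted p = 0.00155). The 5 immune markers with a row summed to between 4.50 and 5.72 at 24 h and between 1.78 and 3.13 at 36 h, with CD14 falling (-0.71, limma adjusted p = 0.0103) and PTPRC at 0. The 3 adipocyte markers with a row summed to between 2.71 and 3.31 and between 0.939 and 2.02, with CEBPA falling (-0.59, limma adjusted p = 0.0487, in 4 of 14 alternatives). The 3 endothelial markers with a row summed to between 1.10 and 1.60 and between 1.01 and 1.67, with KDR at 0. The 4 neural markers with a row summed to between 246 and 260 and between 264 and 284, nearly all of it from NCAM1, which muscle precursors also express. TUBB3 fell from 9.15, 12.9 and 30.6 in NC24h replicates 4, 5 and 6 to between 3.98 and 6.15 (-1.54, limma adjusted p = 0.0184, in 13 of 15 alternatives), and it was -1.07 without NC24h replicate 6. In RNA from whole cultures, fewer cells of a type and less RNA per cell cannot be told apart, and the part of these marker shifts in the values below was not tested.

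All 6 imprinted genes were expressed at both times, with FPKM between 3.67 and 618 in single libraries. GRB10, PHLDA2 and PLAGL1 rose from NC24h to NC36h, and PEG3 fell. MEST and NDN did not pass the test. Changes were taken on log2(FPKM + 1), fitted with limma over the 14060 genes whose mean FPKM reached 1 and adjusted by Benjamini-Hochberg over all of them, with an adjusted p below 0.05 as the threshold. At that threshold 50.9% of all tested genes were called, 16.5% higher and 34.4% lower at 36 h. Of the 6 imprinted genes 4 were called, 3 higher and 1 lower. The 6 genes were not tested as a group, so these counts are not read as a property of it. The median log2 change of the 6 genes was 0.25, and that of all tested genes was -0.16. Median-ratio scaling, which sets the typical gene to the same level in every library, gave medians of 0.41 and -0.006. With that scaling 23.9% of all genes were called higher and 22.3% lower, which moved the share of higher genes among all calls from 32.4% to 51.8%, and the same 4 imprinted genes were called in the same directions.

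**Figure D1:**
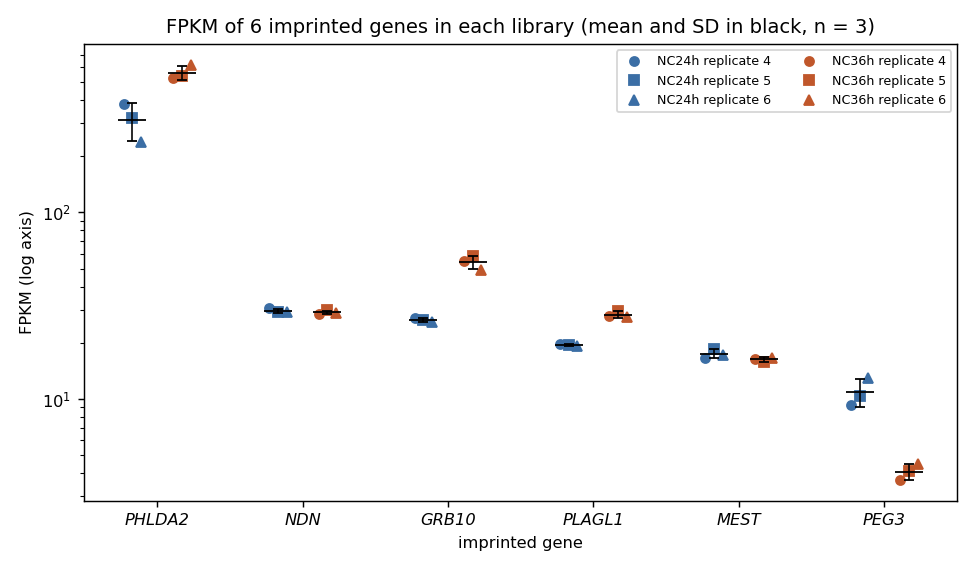
FPKM of the 6 imprinted genes in each of the 6 libraries on a log axis, with NC24h in blue and NC36h in orange, a marker shape for each replicate number, and the mean and SD (n = 3) in black. The groups stand apart for PHLDA2, GRB10, PLAGL1 and PEG3, overlap for NDN and almost touch for MEST.

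PEG3 was the imprinted gene that fell. It encodes a large zinc finger protein expressed from the paternal copy, also known as PW1, and is a known marker of stem and progenitor cells in muscle. PEG3 (ENSSSCG00000003326, chromosome 6 from 61281931 to 61307788 in Sscrofa11.1) had FPKM of 9.32, 10.3 and 12.9 in NC24h replicates 4, 5 and 6, and of 3.67, 4.09 and 4.46 in NC36h replicates 4, 5 and 6. The lowest NC24h library was thus above the highest NC36h library, and NC24h replicate 6 was the highest of all. The mean fell from 10.9 ± 1.86 to 4.07 ± 0.393 (SD, n = 3 each), a 2.67-fold lower FPKM at 36 h. The log2 change was -1.22 with a 95% interval from -1.52 to -0.91 (limma adjusted p = 0.00114). Without NC24h replicate 6, the library with the lowest summed muscle markers, it was -1.09. The values rested on 726 to 980 fragments per library at 24 h and 352 to 412 at 36 h. In rank, PEG3 went from above 51.2% of the tested genes to above 29.9% of them, and 5.03% of the tested genes had a larger absolute change.

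PLAGL1 encodes another zinc finger transcription factor expressed from the paternal copy, known to arrest the cell cycle and to regulate other imprinted genes. PLAGL1 (ENSSSCG00000004127, chromosome 1 from 21299830 to 21371070) had FPKM of 19.7, 19.5 and 19.2 in NC24h replicates 4, 5 and 6, and of 27.8, 29.7 and 27.4 in the NC36h replicates. All NC36h libraries were above all NC24h libraries, and the NC24h values lay close together, with a coefficient of variation of 1.37% where the median of all tested genes was 10.9%. The mean rose from 19.5 ± 0.267 to 28.3 ± 1.24 (SD, n = 3 each), 1.46-fold. The log2 change was 0.52 with a 95% interval from 0.37 to 0.66 (limma adjusted p = 0.00137), and it was 0.51 without NC24h replicate 6.

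NDN encodes necdin, a protein of the MAGE family that binds E2F transcription factors and restrains proliferation, and that is known to favour the differentiation of muscle precursors. NDN (ENSSSCG00000004834, chromosome 1 from 142412688 to 142413665) had FPKM of 30.6, 29.1 and 29.2 in NC24h replicates 4, 5 and 6, and of 28.5, 29.8 and 28.9 in the NC36h replicates. The groups overlapped, and the 6 libraries spanned a narrow range. The mean was 29.6 ± 0.863 at 24 h and 29.1 ± 0.692 at 36 h (SD, n = 3 each). The log2 change was -0.03 with a 95% interval from -0.16 to 0.11 (limma adjusted p = 0.713), and 95.5% of the tested genes had a larger absolute change. Its sign depended on the scaling, since it was 0.14 after median-ratio scaling (limma adjusted p = 0.109), the median of all genes having moved with it.

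MEST encodes a membrane protein of the alpha/beta hydrolase fold, is expressed from the paternal copy and carries the microRNA gene MIR335 in its span. MEST (ENSSSCG00000016554, chromosome 18 from 18319126 to 18358655) had FPKM of 16.6, 18.6 and 17.2 in NC24h replicates 4, 5 and 6, and of 16.4, 15.8 and 16.6 in the NC36h replicates. The NC36h libraries were all below the NC24h libraries, but by a narrow margin, at 16.64 in NC24h replicate 4 and 16.61 in NC36h replicate 6. Groups without overlap were common in these data, at 63.6% of all tested genes and in 5 of the 6 imprinted genes. The mean was 17.5 ± 0.980 at 24 h and 16.3 ± 0.414 at 36 h (SD, n = 3 each). The log2 change was -0.10 with a 95% interval from -0.26 to 0.06 (limma adjusted p = 0.266) and turned to 0.069 after median-ratio scaling (limma adjusted p = 0.438). In RefSeq the span of MEST overlaps COPG2 and a lncRNA gene. The sources used here do not say whether fragments were counted by strand, so fragments in the shared stretch cannot be told apart.

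GRB10 had the largest log2 rise of the 6 genes. It encodes an adaptor protein that binds the activated insulin and IGF1 receptors and restrains their signalling, and it is expressed from the maternal copy in most mouse tissues. GRB10 (ENSSSCG00000015631, chromosome 9 from 136580363 to 136742552) had FPKM of 27.0, 26.5 and 25.8 in NC24h replicates 4, 5 and 6, and of 55.1, 58.1 and 49.2 in the NC36h replicates. Every NC36h library stood well above every NC24h library. The mean rose from 26.4 ± 0.589 to 54.1 ± 4.55 (SD, n = 3 each), 2.05-fold. The log2 change was 1.005 with a 95% interval from 0.83 to 1.18 (limma adjusted p = 0.000692), and it was 0.99 without NC24h replicate 6. The number of fragments was between 1383 and 1485 at 24 h and between 2885 and 4144 at 36 h, and 8.54% of the tested genes had a larger absolute change.

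PHLDA2 was the most abundant of the 6 genes per length. It encodes a small protein with a pleckstrin homology domain, is expressed from the maternal copy and is known for limiting the growth of the placenta. PHLDA2 (ENSSSCG00000021597, chromosome 2 from 2057679 to 2058675) had FPKM of 383, 322 and 239 in NC24h replicates 4, 5 and 6, and of 526, 541 and 618 in the NC36h replicates. The groups did not overlap, and NC24h replicate 6 was the lowest library, where it was the highest for PEG3. The mean rose from 314 ± 72.3 to 562 ± 49.6 (SD, n = 3 each), 1.79-fold. The log2 change was 0.86 with a 95% interval from 0.45 to 1.27 (limma adjusted p = 0.00689). It was 0.67 when NC24h replicate 6 was left out (limma adjusted p = 0.00310), and over all alternatives the adjusted p ran from 0.00310 to 0.0268. The level per length of PHLDA2 rests on a counted length of 309 bases, recovered from the steps of its FPKM values, whereas its RefSeq span is 997 bases. Its fragments, between 1214 and 1999 at 24 h and between 3381 and 3659 at 36 h, are not divided by that length. Fragments outside the counted stretch may be missing from them.

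**Figure D2:**
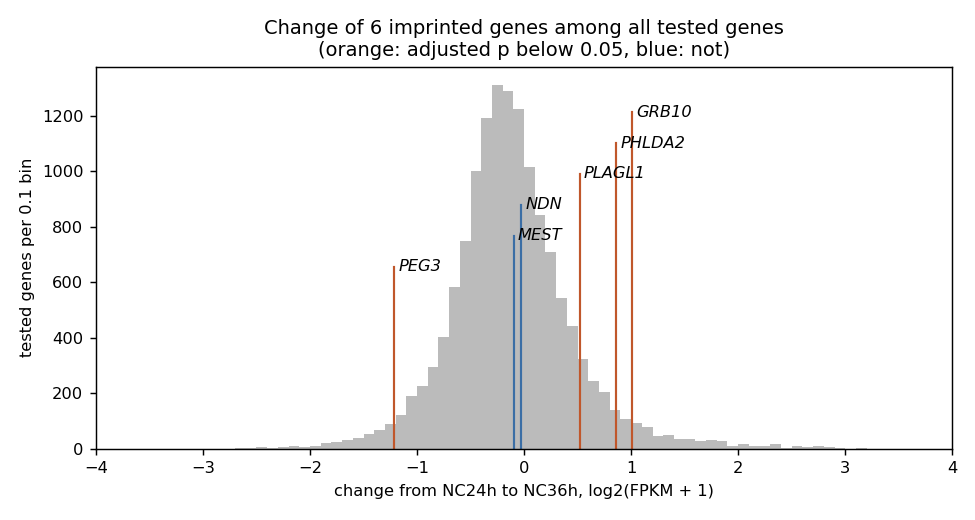
Histogram of the change from NC24h to NC36h on the log2(FPKM + 1) scale for the 14060 tested genes (grey, genes per bin of 0.1), with a vertical line at the change of each imprinted gene. PEG3 at -1.22 and GRB10 at 1.005 lie in the tails, whereas NDN at -0.03 and MEST at -0.10 lie in the bulk of the genes.

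The order of the levels per length changed between the times at 1 place. In NC24h the order from high to low FPKM was PHLDA2, NDN, GRB10, PLAGL1, MEST and PEG3, and the 3 libraries of each gene did not overlap with those of the next. In NC36h GRB10 stood above NDN, and NDN (28.5 to 29.8) and PLAGL1 (27.4 to 29.7) could no longer be told apart, while MEST and PEG3 kept the lowest places. PHLDA2 was above 98.1% of the tested genes at 24 h and 99.0% at 36 h. GRB10 moved from above 74.5% to above 87.3% of them, and PLAGL1 from 67.4% to 77.3%. NDN was at 77.1% and 77.8%, and MEST at 64.5% and 64.8%.

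Ratios of 2 imprinted genes within a library are free of the scaling between libraries, so they were read beside the fitted changes, with no test. The ratio of GRB10 to NDN was 0.881, 0.910 and 0.884 in NC24h replicates 4, 5 and 6, and 1.93, 1.95 and 1.71 in the NC36h replicates. Per length, GRB10 was therefore below NDN in each NC24h library and above it in each NC36h library. In fragments GRB10 was above NDN in every library, at 1485, 1412 and 1383 against 849, 781 and 788 in the NC24h replicates. The crossing thus rests on the counted lengths, and that of NDN is 1639 bases where its RefSeq span is 978 bases. The ratio of PLAGL1 to NDN went from between 0.643 and 0.671 to between 0.951 and 0.996. The ratio of PEG3 to MEST was 0.560, 0.557 and 0.750 at 24 h and 0.224, 0.258 and 0.268 at 36 h. These ratios did not overlap between the times. By contrast, the ratio of PHLDA2 to GRB10 was 14.2, 12.2 and 9.25 at 24 h and 9.55, 9.30 and 12.6 at 36 h. For PHLDA2 to PLAGL1 the ratio was 19.4, 16.5 and 12.5 at 24 h and 18.9, 18.2 and 22.5 at 36 h. The ratio of MEST to NDN was 0.543, 0.638 and 0.590 against 0.575, 0.530 and 0.576. In each of these pairs the times overlapped. The ratio of PHLDA2 to PEG3 was 41.0, 31.2 and 18.5 at 24 h and 143, 132 and 139 at 36 h. The ratio of GRB10 to PEG3 was 2.89, 2.56 and 1.997 at 24 h and 14.99, 14.2 and 11.0 at 36 h. Neither overlapped between the times, and NC24h replicate 6 had the lowest value of both.

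Imprinted genes usually lie in clusters, so the genes around each of the 6 were compared, taking up to 3 tested genes on either side by RefSeq position. The starts of these neighbours lay between 12.5 and 3293.3 kb from that of the imprinted gene. Around PHLDA2, SLC22A18 starts 25.3 kb before it and encodes a membrane transporter that is imprinted in the same cluster. SLC22A18 had FPKM of 8.91, 8.15 and 3.50 in NC24h replicates 4, 5 and 6 and of 22.3, 21.1 and 21.5 in the NC36h replicates. It was thus higher in every NC36h library and, like PHLDA2, lowest in NC24h replicate 6. Its log2 change was 1.61 (limma adjusted p = 0.00457), and 1.25 without that library. NAP1L4, a histone chaperone gene that starts 12.5 kb after PHLDA2, was not called (FPKM 113 ± 1.78 and 120 ± 2.07, log2 change 0.09, limma adjusted p = 0.209), but was called after median-ratio scaling (0.26, limma adjusted p = 0.0125). OSBPL5, further along, had a log2 change of 0.06 (limma adjusted p = 0.612).

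Around MEST, which was not called, the 3 genes that follow it, CEP41, CPA1 and CPA4, all fell, with log2 changes of -0.61, -0.50 and -1.35. CPA4, a carboxypeptidase gene imprinted in humans, went from 9.35 ± 1.98 to 3.03 ± 0.694 FPKM (limma adjusted p = 0.00197). COPG2, which overlaps MEST, fell by 0.29 on the log2 scale, and this call was lost after median-ratio scaling (-0.13, limma adjusted p = 0.230).

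Around PEG3, the zinc finger genes ZNF787 and ZNF865 rose (0.70 and 0.79, limma adjusted p = 0.00886 and 0.00553) where PEG3 fell. ZNF667, ZNF135 and ZNF329 did not pass the test. Around NDN, the phosphatase-family gene MTMR10 was the called one (-0.83), and UBE3A, a ubiquitin ligase gene of the same imprinted region, had a log2 change of 0.09 (limma adjusted p = 0.515). The imprinted gene SNRPN has no chromosome in the positions used, so it could not be taken as a neighbour. It fell (-0.26, limma adjusted p = 0.0140, in 13 of 15 alternatives), and this call was lost after median-ratio scaling (-0.09, limma adjusted p = 0.264). Around PLAGL1, the syntaxin gene STX11 rose (0.91) and FUCA2 fell (-0.63). Without NC24h replicate 6 they were at 0.66 and -0.52. The imprinted gene nearest to PLAGL1, PHACTR2, was at -0.03 (limma adjusted p = 0.823). Around GRB10, G0S2 rose (0.66), FIGNL1, which starts 96.1 kb before it, was at -0.41 (limma adjusted p = 0.132), and EGFR was at -0.12 (limma adjusted p = 0.239).

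Counting the neighbours of all 10 listed genes, including DLK1, PEG10, NNAT and GNAS by their RefSeq positions, 12 of 55 were higher and 16 lower, which is 50.9% called, the share of all tested genes. Their median log2 change was -0.09, and median-ratio scaling gave 15 higher and 12 lower with a median of 0.058. Among the smaller rises were WDR25 (0.34, in 13 of 15 alternatives), VAPB (0.26, in 12 of 15) and AP2A2 (0.20, in 9 of 15). By their starts they lie 327.6 kb from DLK1, 390.8 kb from GNAS and 1477.5 kb from PHLDA2, in that order. The 45 neighbours not listed here as imprinted gave 10 higher and 13 lower, and the 10 listed as imprinted 2 higher and 3 lower. The position beside PEG10 held SGCE, the epsilon-sarcoglycan gene, which is imprinted together with it. SGCE fell from 33.8 ± 5.48 to 14.7 ± 1.38 FPKM (log2 change -1.14, limma adjusted p = 0.00120).

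**Figure D3:**
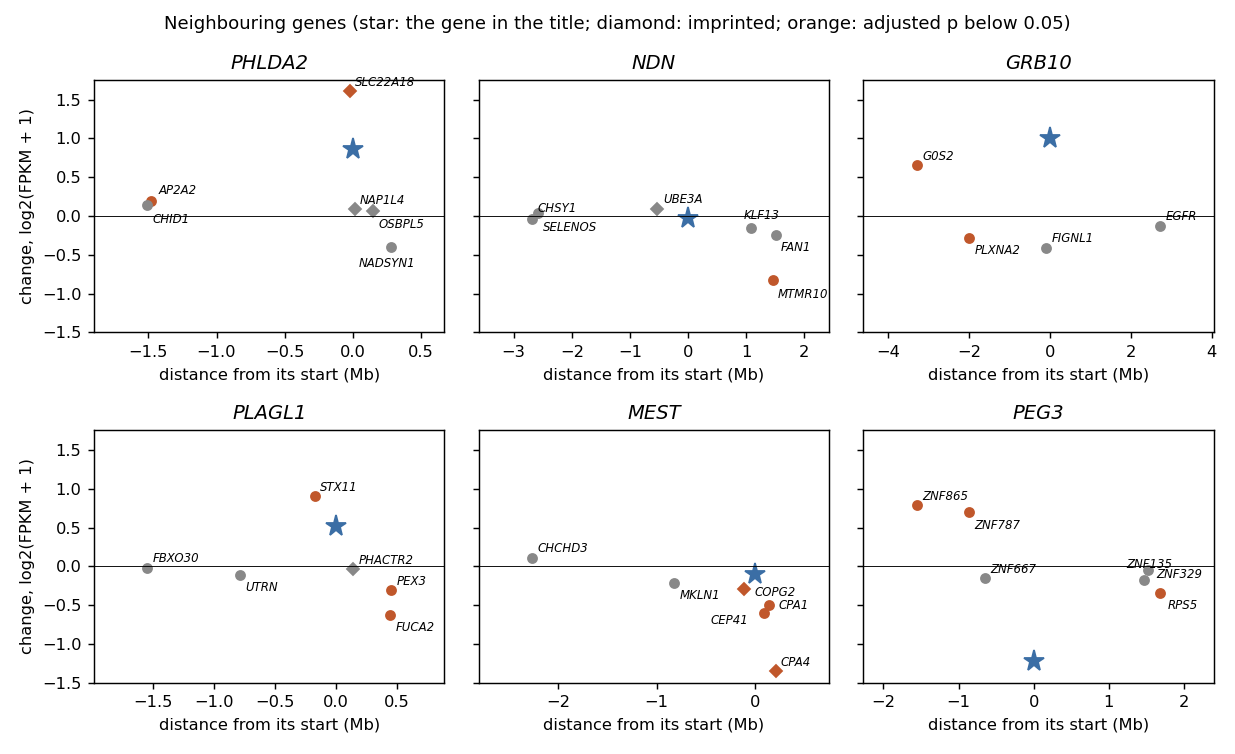
Change from NC24h to NC36h on the log2(FPKM + 1) scale of the tested genes around each of the 6 imprinted genes, plotted by the distance of their start from the start of the gene in the title in megabases (star: that gene; diamonds: other imprinted genes; circles: other genes; orange: adjusted p below 0.05). SLC22A18 at 1.61 stands beside PHLDA2, and CPA4 at -1.35 is the lowest point around MEST.

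The 6 genes were set beside a list of 70 other genes known as imprinted in human, mouse or pig, of which 38 had a row and 28 were tested. Of these, 6 were higher and 9 lower (53.6% called), with a median log2 change of -0.10. After median-ratio scaling 8 were higher and 6 lower, with a median of 0.05. The largest changes were the fall of AMPD3, the AMP deaminase gene, from 38.5 ± 4.80 to 10.8 ± 3.51 FPKM (-1.78, limma adjusted p = 0.00135) and the rise of CALCR, the calcitonin receptor gene, known as a marker of quiescent satellite cells in mice, from 1.57 ± 0.608 to 7.23 ± 0.976 (1.70, limma adjusted p = 0.00133). TRAPPC9, a gene of vesicle transport, rose from 18.2 ± 0.905 to 32.9 ± 3.66 (0.82, limma adjusted p = 0.00133). ASB4 was near the floor, at 0.640, 0.617 and 0.175 FPKM on 15, 14 and 4 fragments in NC24h replicates 4, 5 and 6. It rose to between 1.12 and 3.02 (1.06, limma adjusted p = 0.0158, in 12 of 14 alternatives). The rise of NAP1L5 (0.40, limma adjusted p = 0.0136) passed in 13 of 15 alternatives and that of DGAT1 (0.30, limma adjusted p = 0.0238) in 11 of 15. The changes of GRB10 and PEG3 thus lay inside the range of the other imprinted genes, from -1.78 to 1.70, and those of MEST and NDN lay among the 13 that were not called.

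**Figure D4:**
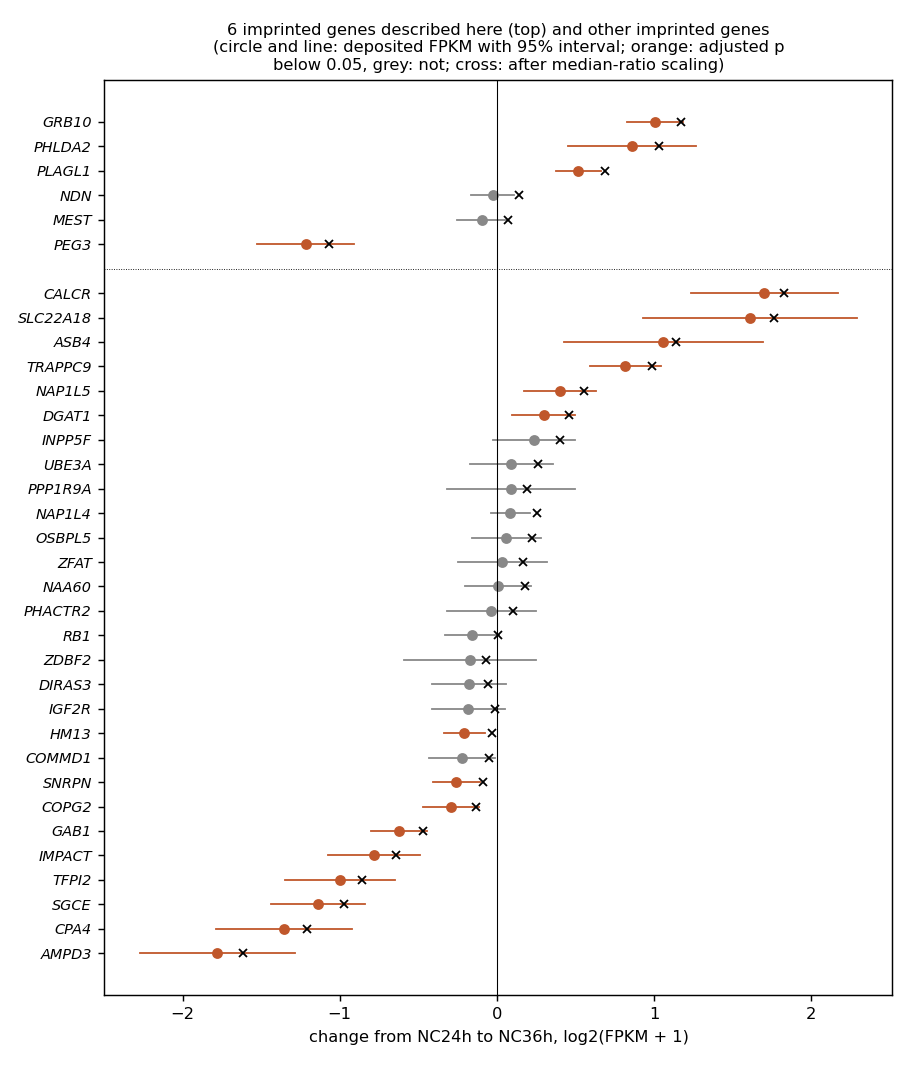
Change from NC24h to NC36h on the log2(FPKM + 1) scale for the 6 imprinted genes (top) and the 28 other imprinted genes tested (bottom), with circles and 95% intervals from the deposited FPKM, orange where the adjusted p was below 0.05, and crosses for the change after median-ratio scaling. The crosses lie to the right of the circles throughout, and the changes run from -1.78 for AMPD3 to 1.70 for CALCR.

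GRB10 acts on the insulin and IGF1 receptors, so the genes of that pathway were listed as well. Of 19 tested, 4 were higher and 5 lower, with a median log2 change of -0.02. This is 47.4% called, against 50.9% of all tested genes. Median-ratio scaling turned the counts to 6 higher and 3 lower with a median of 0.15. INSR, the insulin receptor that GRB10 binds, had FPKM of 5.28, 5.004 and 6.27 in NC24h replicates 4, 5 and 6 and of 2.65, 2.50 and 2.54 in the NC36h replicates. INSR was lower in every NC36h library (log2 change -0.87, limma adjusted p = 0.00144), where GRB10 was higher. The IGF1 receptor gene IGF1R was at 0.0412 FPKM or below in every library, on 0 to 2 fragments, and was not tested. Whether its row covers the transcripts of the gene was not checked, so this value is not read as absence of the receptor. SH2B2, another adaptor of the insulin receptor, rose from 10.9 ± 0.175 to 31.1 ± 3.52 (1.42, limma adjusted p = 0.000586). RHEB, the GTPase that activates mTOR, fell from a mean of 83.6 to 53.5 (-0.63, limma adjusted p = 0.00195). The receptor substrate gene IRS1 rose (0.42, limma adjusted p = 0.0142, 13 of 15 alternatives) and the PI3 kinase subunit gene PIK3CB fell (-0.73, limma adjusted p = 0.0166, 12 of 14 alternatives). SH2B1 (0.34) and RPTOR (0.30, in 11 of 15 alternatives) rose as well. AKT2 (0.07, limma adjusted p = 0.515) and MTOR (-0.02, limma adjusted p = 0.805) were not called.

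The pathways of the listed genes without a row were counted too. For the Notch pathway, to whose ligands DLK1 is related, 3 of 17 tested genes were higher and 10 lower, with a median log2 change of -0.47. This is 76.5% called, against 50.9% of all tested genes. After median-ratio scaling 4 were higher and 8 lower. NOTCH2 (-0.999), NUMBL (-0.98), related to the Notch inhibitor Numb, RBPJ (-0.90), the DNA-binding partner of the Notch receptors, and HEY1 (-0.88), a target gene, fell. The ligand gene JAG2 (1.59), HES6 (0.87) and the receptor gene NOTCH3 (0.45, in 10 of 15 alternatives) rose. Without NC24h replicate 6, NOTCH2 was at -0.82, NUMBL at -1.12, RBPJ at -0.72 and HEY1 at -0.89. JAG2 was then at 1.77, HES6 at 0.67 and NOTCH3 at 0.34. For Gs, cAMP and protein kinase A signalling, in which GNAS encodes the G protein subunit, 5 of 24 were higher and 4 lower (37.5% called). After median-ratio scaling 10 were higher and 3 lower. The genes of 1 role did not move together. PKIB, an inhibitor of the kinase, fell (-1.16, limma adjusted p = 0.00178), and PKIG, another inhibitor, rose (0.52, limma adjusted p = 0.00214). PRKACA, a catalytic subunit, rose (0.70, limma adjusted p = 0.00175), whereas ADCY2, an adenylyl cyclase that makes cAMP, fell (-0.93, limma adjusted p = 0.00328). Of the phosphodiesterases, which break cAMP down, PDE8A fell (-0.68, limma adjusted p = 0.00188) and PDE7A rose (0.70, limma adjusted p = 0.0453, in 7 of 14 alternatives). ATF1, a transcription factor of the pathway, fell by 0.38 on the log2 scale, and this call was lost after median-ratio scaling (limma adjusted p = 0.116).

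Genes that act on DNA methylation or chromatin, among them factors that keep imprints, were listed because imprints are held by DNA methylation. Of 15 tested, 2 were higher and 5 lower, with a median log2 change of -0.17. This is 46.7% called, against 50.9% of all tested genes. After median-ratio scaling 3 were higher and 3 lower. DNMT1, the maintenance DNA methyltransferase, had FPKM of 21.1 ± 0.958 and 21.3 ± 1.93 (log2 change 0.01, limma adjusted p = 0.912). Its partner UHRF1 had FPKM of 6.45, 9.81 and 20.2 in NC24h replicates 4, 5 and 6 and between 4.10 and 4.41 in the NC36h replicates, so that the fall (-1.18, limma adjusted p = 0.0280) was steepest from NC24h replicate 6 and was -0.76 without it. It passed in 11 of 15 alternatives. CTCF, which binds imprinting control regions, fell from 17.8 ± 0.305 to 13.2 ± 0.625 (-0.40, limma adjusted p = 0.00325), and TET1, a methylcytosine dioxygenase gene, rose from 3.17 ± 0.161 to 5.37 ± 0.155 (0.61, limma adjusted p = 0.00197). KDM1B, a histone demethylase gene, rose (0.49, limma adjusted p = 0.00421), and EZH2, a histone methyltransferase gene, fell (-0.55).

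Relatives of the listed genes in the same protein families were compared last. Of 13 tested, 3 were higher and 5 lower, with a median log2 change of -0.03. This is 61.5% called, against 50.9% of all tested genes. After median-ratio scaling 6 were higher and 3 lower. MAGED1, of the same MAGE family as NDN, stood at 709 ± 101 and 691 ± 15.1 FPKM and, like NDN, was not called (-0.03, limma adjusted p = 0.857), while MAGEF1 of that family rose by 0.21 on the log2 scale (limma adjusted p = 0.0495, in 5 of 15 alternatives). PLAG1, of the same family as PLAGL1, had 2.20 ± 0.445 and 3.27 ± 0.848 (0.41, limma adjusted p = 0.106). ABHD11, a hydrolase of the same fold as MEST, fell (-0.51, limma adjusted p = 0.00738). RTL5 fell (-0.93) and RTL6 rose (0.58), both derived from retrotransposons as PEG10 is, with limma adjusted p = 0.00619 and 0.00298. The largest changes of the list were those of SLN, the sarcolipin gene, listed as a relative of NNAT, and of GNAI1, a G protein subunit gene as GNAS is. SLN rose from 29.5, 24.7 and 7.48 FPKM in NC24h replicates 4, 5 and 6 to between 53.7 and 64.9 (1.71, limma adjusted p = 0.0194, in 13 of 15 alternatives), and the change was 1.13 without NC24h replicate 6. GNAI1 fell from 8.48, 9.31 and 18.5 FPKM in NC24h replicates 4, 5 and 6 to between 3.68 and 4.33 (-1.32, limma adjusted p = 0.00687). Its change was -0.998 without NC24h replicate 6.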

How the data were processed

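The data were 6 RNA-seq libraries of PSCs, 3 per group. According to the study's methods the authors used HISAT2 to map paired-end reads to Sscrofa11.1, StringTie to assemble and HTSeq to count, whereas the submitters' processing notes name TopHat2, Cufflinks and HTSeq. The authors deposited FPKM values, with 1 column per library and none pooled, and the strand setting is not given in the sources used here. The steps of the FPKM values gave whole fragments for 19543 of 19543 genes (tolerance 0.02), and 99.1% of the recovered gene lengths were within 0.05 of a whole number. Fragments with a common factor in all libraries would be recovered as too few.

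The 14060 genes whose mean FPKM reached 1 were fitted on log2(FPKM + 1) by limma 3.58.1 (R 4.3.3), using lmFit and eBayes with trend, two-sided, and Benjamini-Hochberg adjustment over all of them. For low genes the pseudocount of 1 makes the change smaller than the fold change of the FPKM. Symbols were paired with 11804 of 25322 Ensembl identifiers, so that lists cover named genes only. Coordinates come from RefSeq (Sscrofa11.1). No sequences are shown.

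The imprinted genes, the lists and the tests were chosen with earlier results of these data known. Named genes were all listed imprinted genes, up to the 5 largest changes past the threshold per list and those opposite to the list's median, and the 2 nearest profiles of each gene. Other neighbours, pathway genes and family members were named after their values were seen. In 15 alternatives the pseudocount was 0.1 or 0.01, the FPKM filter was dropped or raised to 5, the libraries were scaled by median ratios or by quantiles, the trend was left out of eBayes, the replicate number entered as a block, each of the 6 libraries was left out in turn, or limma voom was run on the recovered fragments.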

Additional observations from a re-analysis of the deposited data

How the results depend on the processing

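The calls of GRB10, PHLDA2, PLAGL1 and PEG3 kept their direction and their side of the threshold in all 15 alternatives, with log2 changes from 0.95 to 1.17, from 0.67 to 1.03, from 0.48 to 0.69 and from -1.41 to -1.03. MEST and NDN were called in none. Their sign turned with the scaling, for MEST to 0.069 after median-ratio scaling and 0.021 after quantile normalization, and for NDN to 0.14 and 0.060. Median-ratio scaling moved the median of all genes from -0.16 to -0.006. Leaving out each library in turn gave 4 called in each fit. The number of genes called over all tested was between 4889 and 7336 when each library was left out. Among other imprinted genes between 10 and 16 were called over the alternatives, and among neighbours between 21 and 29. With the replicate block, 4 imprinted genes, 16 other imprinted genes and 7034 of all genes were called, against 4, 15 and 7156 without it. The deviations of same-numbered libraries correlated at 0.15, -0.02 and 0.18 for replicates 4, 5 and 6, and the replicate numbers were therefore not treated as pairs.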

Other observations

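For each of the 6 imprinted genes, the 2 genes with the most similar profile were taken from the 7881 tested genes with a symbol, by the Euclidean distance of the centred log2(FPKM + 1) values over the 6 libraries. They were HECTD4 (0.0496) and MRPL52 (0.0659) for MEST, RPLP1 (0.0580) and CHMP3 (0.0596) for NDN, PNPLA8 (0.0825) and MIGA2 (0.0873) for PLAGL1, SAC3D1 (0.0875) and HOXB2 (0.0994) for GRB10, NDRG3 (0.0809) and ACSF2 (0.0864) for PEG3, and PLPP1 (0.147) and HSD11B2 (0.150) for PHLDA2. The distances are a description over 6 libraries that share the scaling and the difference between the times.

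Beside the positions of listed genes without a row, NPEPL1, next to GNAS, rose from 48.2 to 129 FPKM (log2 change 1.40, limma adjusted p = 0.000586), and STX16 rose by 0.55. SRC, next to NNAT, fell from 51.5 to 23.1 (-1.13, limma adjusted p = 0.00102), and CASD1, near PEG10, from 10.5 to 4.50 (-1.06, limma adjusted p = 0.000715). SLC25A47, near DLK1, rose from 3.30 to 9.39 (1.27, limma adjusted p = 0.00239).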
